A study of Mus musculus with 10 samples.

Results

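Cyclins, the cyclin-dependent kinases (CDKs) they switch on, and the inhibitors, pocket proteins and phosphatases around them were examined in hematopoietic stem cells (HSCs). The 38 genes were taken by symbol and all 38 are among the 26146 genes of the deposited count table. RNA was sequenced in bulk from bone marrow HSCs, sorted as LSKCD48-CD150+ cells (negative for lineage markers and CD48, positive for Sca-1, c-Kit and CD150), with 1 polyA RNA library per mouse, 5 mice per genotype and 10 libraries in all. Both genotypes carried Cited2 fl/fl on a C57BL/6J background at 8 to 12 weeks of age. The control mice (Cited2CTL, CTL, wildtype in the labels) had no Cre, and the Cited2CKO mice (CKO, Cited2 KO in the labels) also carried Vav-iCre, which recombines across the hematopoietic lineages rather than in HSCs alone.

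Most adult HSCs rest outside the cell cycle, and their entry into it is set in G1. D cyclins pair with CDK4 or CDK6 and phosphorylate the pocket proteins RB1, RBL1 (p107) and RBL2 (p130), which otherwise hold E2F factors in check. E cyclins with CDK2 then drive the start of DNA replication, A cyclins act through S phase, and B cyclins with CDK1 bring cells into mitosis. INK4 inhibitors (Cdkn2a to Cdkn2d) bind CDK4 and CDK6, and CIP/KIP inhibitors such as p27 (Cdkn1b) bind several cyclin-CDK pairs. Another group of cyclins and CDKs (Ccnh with Cdk7, Ccnt1 or Ccnt2 with Cdk9, Ccnk with Cdk12 or Cdk13, Ccnc with Cdk8) acts on RNA polymerase II and transcription.

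The counts summed to between 3058690 and 4548795 per CTL library (median 3984482) and between 3500215 and 4315029 per CKO library (median 4218483). *Cited2* itself was at 101, 171, 162, 222 and 160.2 CPM in CTL 1 to 5 and at 3.80, 4.21, 120.1, 5.00 and 8.30 CPM in CKO 1 to 5. With 508 counts, the sample named CKO 3 therefore goes against its label. Without it *Ccnd1* (below) was still the single member called, and the log2 fold changes that moved most were those of the uncalled *Ccnk* (0.18 to 0.020), *Cdc25b* (-0.060 to 0.077) and *Ccng2* (-0.15 to -0.064). The 12 HSC markers summed to between 2294 and 2597 CPM in CTL and between 2073 and 2368 CPM in CKO. Summed markers of progenitors, erythroid cells, megakaryocytes, granulocytes and monocytes, and B cells overlapped between the genotypes, with *Ly6g* at 0 in all libraries. The 7 T and NK cell markers summed to 52.9 to 101 CPM in CTL and 89.1 to 128 CPM in CKO, most of it *Nkg7*. *Cd48*, whose product the gate excludes, rose from 21.6 ± 5.53 CPM to 49.0 ± 9.15 CPM (log2 fold change 1.18, standard error 0.20, adjusted p = 0.0264; 0.132 with gene length and base composition modelled). The part of these markers in the results below was not tested, and in bulk RNA fewer cells of a type and less RNA per cell cannot be told apart.

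Of the 38 genes, 35 passed the filter on low counts and were tested between the genotypes, and 1 of the 35 was called. *Ccnd1*, which encodes cyclin D1, was higher in CKO HSCs, and no gene of the group was called lower. The call required an adjusted p under 0.05 and a fold change above 20% in edgeR's quasi-likelihood test, and 0.226% of all 14165 tested genes met it (0.12% higher and 0.106% lower). *Ccnd1* was also the only 1 of the 35 whose CPM (counts scaled to the normalized library size) did not overlap between the genotypes, against 3.33% of all tested genes without overlap (1.35% higher and 1.98% lower). An unadjusted p under 0.05 was found for 4 of the 35 (*Ccnd1*, *Rbl2*, *Ccnd3* and *Ccna2*) and for 12.9% of all tested genes. DESeq2 called *Ccnd1* among the 35 and 2.29% of all tested genes. The log2 fold change was above 0 for 19 and below 0 for 16 of the 35, with a median of 0.012 against 0.007 over all tested genes.

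**Figure D1:**
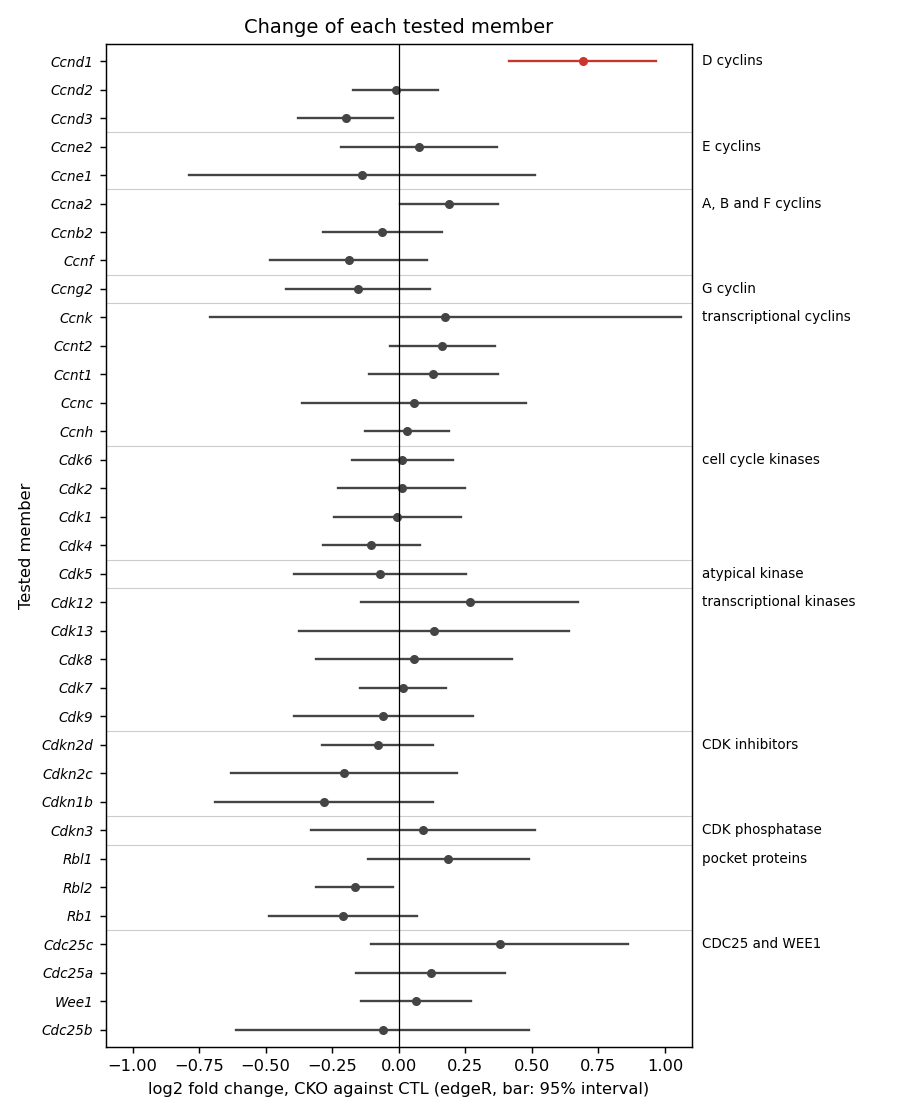
The horizontal axis gives the log2 fold change of CKO against CTL HSCs for each of the 35 tested genes, grouped by role, with a point for edgeR's estimate and a bar for its 95% interval (5 libraries per genotype). *Ccnd1*, drawn in red, is the only called gene, and the 95% intervals of 26 genes lie within a 1.5-fold change in either direction.

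The intervals say how large a change could have been missed under this fit and its normalization, with the library labelled CKO 3 included. They do not cover the choice of normalization. With gene length and base composition modelled, the log2 fold changes of *Ccnd3* (0.035) and *Cdk7* (-0.180) lay outside their intervals. For 26 of the 35 genes, and for 7223 of all 14165, the 95% interval of the fold change lay inside 1.5-fold in both directions. It lay inside 2-fold for 34 of the 35, all except *Ccnk*, which had few counts. The narrow group holds the genes of the G1 machinery with many counts, *Ccnd2*, *Ccnd3*, *Cdk2*, *Cdk4*, *Cdk6* and the 3 pocket protein genes among them. A p that missed the threshold does not show that these genes were equal in both genotypes.

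The D cyclins respond early to growth signals in G1. *Ccnd1* (chr7:144929931-144939925 on the minus strand, GRCm38) was at 75.9, 70.7, 58.8, 80.9 and 61.0 CPM in CTL 1 to 5. CKO 1 to 5 had 94.8, 100.2, 104, 140.2 and 122 CPM. All CKO libraries were above all CTL libraries, the library labelled CKO 3 in the middle of its group. The rise was 1.61-fold, from 69.5 ± 9.47 CPM to 112 ± 18.7 CPM (SD, n = 5; log2 fold change 0.69, standard error 0.13, adjusted p = 0.0456, 95% interval 0.41 to 0.97). It lay close to the threshold: the adjusted p was 0.0499 without the library labelled CKO 3 and between 0.0521 and 0.127 without any other 1 of the libraries, and the call was also lost with limma-voom (0.0583) and once base composition and length of the genes were modelled by an offset (GC and length offset, 0.0506), while the log2 fold change stayed between 0.61 and 0.75. DESeq2's Wald test gave an adjusted p of 0.000237. The exons of *Ccnd1* overlap *LTO1* on the opposite strand, and the use of strand in counting is not given in the sources used here. *LTO1* was at 46.9 ± 16.6 CPM in CTL and 38.1 ± 7.08 CPM in CKO (log2 fold change -0.29, adjusted p = 0.612), with overlapping groups. CTL 1 (75.9 CPM) raised the CTL mean, and CTL 2 to 5 had 43.4, 40.0, 40.7 and 34.4 CPM. The part of *LTO1* in the value of *Ccnd1* was not tested.

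*Ccnd3*, the D cyclin with the highest level per length, was at 266, 258, 247, 217 and 216 CPM in CTL 1 to 5. The CKO libraries, 1 to 5, had 203, 202, 208, 243 and 192 CPM. The CKO libraries lay low and CKO 4 alone reached into the CTL range. The log2 fold change was -0.20 (95% interval -0.38 to -0.020, adjusted p = 0.34) and moved to 0.035 with the GC and length offset. *Ccnd2* was at 414 ± 36.4 CPM in CTL and 410.4 ± 30.1 CPM in CKO, with the interval of its log2 fold change from -0.17 to 0.15.

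The make-up of the D cyclin pool was compared on RPKM, the CPM per kilobase of the deposited gene length. *Ccnd1* made up 9.19%, 8.98%, 7.82%, 11.7% and 9.11% of D cyclin RPKM in CTL 1 to 5. In CKO 1 to 5 it made up 13.9%, 14.2%, 14.0%, 16.7% and 17.4%. The lowest CKO share was above the highest CTL share. The mean share was 9.35 ± 1.40% in CTL and 15.2 ± 1.67% in CKO, and that of *Ccnd3* was 54.2 ± 1.09% and 47.9 ± 1.48%, also without overlap. For both, exact permutation (two-sided) gave p = 0.00794, the smallest that 5 against 5 libraries can give, and 0.0714 after Benjamini-Hochberg adjustment over the 18 shares compared, which does not pass 0.05. Over 18 shares, those of *Ccnd1* and *Ccnd3* could not have passed at any p of this design unless another share was as low. The adjustment therefore cannot decide. *Ccnd2* stayed the middle member at 36.5 ± 0.515% and 36.8 ± 1.47% (exact permutation p = 0.675). The shares sum to 100% in each library, so the shares of *Ccnd1* and *Ccnd3* are tied to each other. *Ccnd1* was the lowest of the D cyclins in every library of both genotypes.

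**Figure D2:**
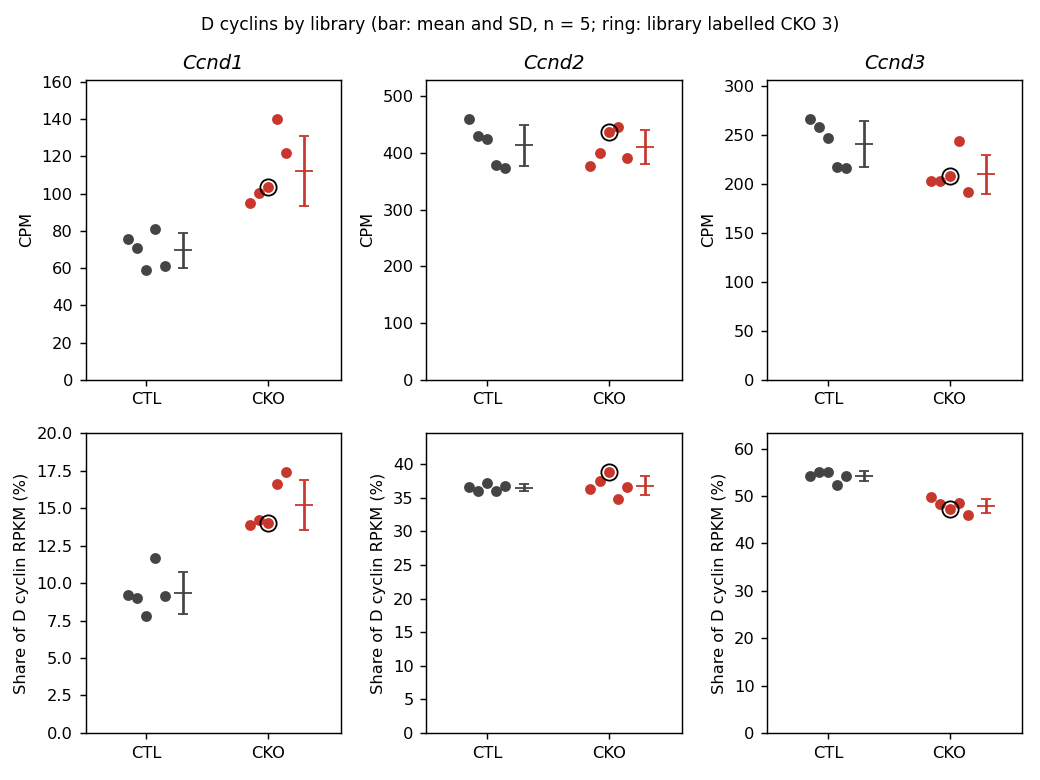
Each point is 1 library, the bars give the mean and SD of 5 libraries per genotype, and a ring marks the library labelled CKO 3. The upper row plots CPM and the lower row the share of D cyclin RPKM in percent: *Ccnd1* is higher in all CKO libraries on both scales, and the share of *Ccnd3* is lower in all of them.

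Neither of the kinases that pair with D cyclins was called. *Cdk4*, the gene with the highest level per length of all 38, was at 297, 245, 265, 230.3 and 228 CPM in CTL 1 to 5. Values in CKO 1 to 5 were 217, 222, 228, 265 and 245 CPM, a range that overlaps that of CTL (log2 fold change -0.10, adjusted p = 0.655; 0.005 with the GC and length offset). *Cdk6*, the second partner of the D cyclins, was at 160.5 ± 14.5 CPM and 162 ± 16.4 CPM. Of the summed RPKM of both kinases, *Cdk4* made up 74.2 ± 3.13% in CTL and 72.7 ± 1.48% in CKO (exact permutation p = 0.397).

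None of the pocket protein genes was called. *Rbl2*, whose product p130 is typical of resting cells, was at 198, 191, 183, 196 and 196 CPM in CTL 1 to 5. CKO 1 to 5 had 170.4, 175, 193, 161 and 162 CPM. The library labelled CKO 3 had the highest CKO value, and without it the genotypes did not overlap. Leaving out a library can only add genes without overlap, and their share among all tested genes was not counted for that set of libraries. The log2 fold change was -0.17 (95% interval -0.31 to -0.020, adjusted p = 0.333) with all libraries and -0.21 without that library (adjusted p = 0.207). *Rb1*, the retinoblastoma gene, was at 94.3, 129, 85.8, 107 and 133 CPM in CTL 1 to 5 and 87.7, 112, 101, 92.0 and 84.3 CPM in CKO 1 to 5, with overlapping groups (log2 fold change -0.21, standard error 0.13, adjusted p = 0.534). *Rbl1*, itself a target of E2F, was at 171 ± 21.9 CPM and 195 ± 43.5 CPM (log2 fold change 0.19, standard error 0.14, adjusted p = 0.624).

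The CDK inhibitors were low or moderate, and none was called. p27 (*Cdkn1b*), which restrains CDK2, was at 32.1, 24.8, 32.6, 21.7 and 23.2 CPM in CTL 1 to 5. The CKO libraries, 1 to 5, had 18.3, 23.3, 19.1, 20.9 and 28.6 CPM, and the groups overlapped (log2 fold change -0.28, standard error 0.19, adjusted p = 0.579). *Cdkn2d* (p19INK4D) had the highest level per length of the inhibitors, at 79.6, 85.9, 90.5, 89.0 and 99.6 CPM in CTL 1 to 5 and 89.6, 80.4, 72.3, 87.6 and 91.3 CPM in CKO 1 to 5. It made up 69.6 ± 2.97% of the inhibitors' RPKM in CTL and 71.8 ± 3.14% in CKO (exact permutation p = 0.270). *Cdkn2c* (p18INK4C) was at 21.2 ± 3.71 CPM and 18.4 ± 2.97 CPM. The log2 fold changes of the 3 tested inhibitors were below 0 (-0.28 for *Cdkn1b*, -0.21 for *Cdkn2c* and -0.080 for *Cdkn2d*), with a median of -0.21. With the GC and length offset *Cdkn2c* turned to 0.021, *Cdkn2d* to 0.10 and the median to 0.021, and without the library labelled CKO 3 *Cdkn2d* was at -0.029. *Cdkn3*, a phosphatase that acts on CDKs, was at 22.4, 26.8, 22.0, 26.1 and 29.8 CPM in CTL 1 to 5 and 17.8, 32.7, 22.5, 30.0 and 33.0 CPM in CKO 1 to 5, with the lowest and the highest value both in CKO.

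*Cdkn2a*, *Cdkn2b* and the A cyclin *Ccna1*, known mainly from the germ line, did not pass the filter and are given as counts. *Cdkn2a*, which encodes p16INK4A and p19ARF and whose counts cannot separate them, had 0 counts in 9 libraries and 3 in CKO 5. *Cdkn2b* (p15INK4B) had 4 counts over the CTL libraries and 7 over the CKO libraries. A count of 3, taken as the floor in each library, corresponds to between 0.656 and 1.00 CPM. A library with 0 counts of *Cdkn2a* therefore does not exclude a level below that floor. *Ccna1* had 0, 3, 0, 1 and 7 counts in CTL 1 to 5 and 6, 11, 8, 10 and 4 in CKO 1 to 5, sums of 11 and 39. Fitted without the filter, its log2 fold change was 1.82 (95% interval -0.30 to 3.93, adjusted p = 0.588).

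E cyclins trigger replication with CDK2. *Ccne2* was at 108, 105, 99.95, 93.6 and 93.0 CPM in CTL 1 to 5. Values in CKO 1 to 5 were 76.3, 91.8, 125, 135 and 98.9 CPM. CKO libraries thus lay both below and above the whole CTL range. The means were close (log2 fold change 0.075, standard error 0.14, adjusted p = 0.86). *Ccne1*, with few counts, was at 16.1, 26.5, 19.99, 21.0 and 19.9 CPM in CTL 1 to 5 and 10.5, 10.1, 18.7, 22.3 and 32.5 CPM in CKO 1 to 5 (log2 fold change -0.14, standard error 0.30, adjusted p = 0.888). Their kinase *Cdk2* was at 176, 168, 148, 151 and 157 CPM in CTL 1 to 5 and 129, 137, 175, 199 and 168 CPM in CKO 1 to 5, again widest in CKO and with nearly equal means (0.011 on the log2 scale).

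The spread of *Ccne2* and *Cdk2* over libraries was set beside 25 genes of S phase (replication genes such as *Mcm2* and *Pcna*), a comparison made after the data were seen. The mean log2 CPM of these genes was 7.26, 7.23, 7.33, 7.21 and 7.23 in CTL 1 to 5 and 7.02, 7.15, 7.44, 7.43 and 7.26 in CKO 1 to 5. CKO 1 was lowest and CKO 3 and CKO 4 were highest. *Ccne2* followed this order over the 10 libraries (Pearson r = 0.940, permutation p = 0.00023; Spearman rho = 0.915, permutation p = 0.00054), with r = 0.870 without CKO 1 and the library labelled CKO 3, the 2 farthest from the median, and 0.943 after removal of the genotype means. *Cdk2* was next (r = 0.823, permutation p = 0.00428; rho = 0.758, permutation p = 0.0147; r = 0.741 without those 2 libraries). Of the 35 relations computed, these 2 had r above 0.7, as did 1.59% of all tested genes. In an edgeR fit with the S phase mean and the genotype as terms, adjusted over 14140 genes, neither passed (adjusted p = 0.257 for *Ccne2* and 0.532 for *Cdk2*). That fit called 0% of genes, while 7.13% (1008 genes), and 6 of the 35, had an unadjusted p under 0.05. Most of the range comes from the CKO libraries, and 5 libraries are too few for a coefficient within 1 genotype. Over the CKO libraries the sign of the relation was positive for both genes, and over the CTL libraries it was positive for *Ccne2* and negative for *Cdk2*. *Ccnd2* came after *Cdk2* (r = 0.664, permutation p = 0.0348), with rho = 0.733 (permutation p = 0.0204). *Cdk13* ran the other way (r = -0.671, permutation p = 0.0322), with rho = -0.588 (permutation p = 0.0797), and *Ccng2* is given below. In the edgeR fit *Ccnd2* (adjusted p = 0.703) and *Cdk13* (adjusted p = 0.666) did not pass.

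**Figure D3:**
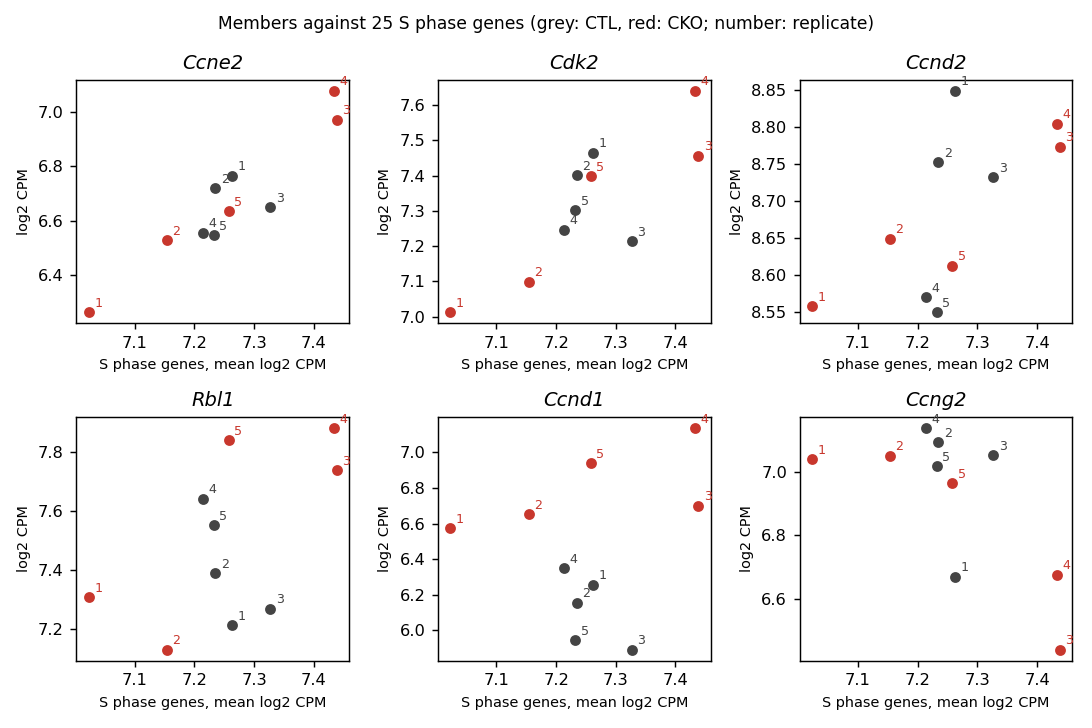
Each panel plots the log2 CPM of 1 gene against the mean log2 CPM of 25 S phase genes, with a point per library (grey for CTL, red for CKO) and its replicate number. *Ccne2* and *Cdk2* rise from CKO 1 to CKO 3 and CKO 4. *Ccnd1* is higher in every CKO library than in any CTL library, and *Ccng2* is lowest in the library labelled CKO 3.

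*Rbl1* and *Cdk1* are known E2F targets, and *Cdk2* encodes the kinase that acts with E cyclins. *Cdk1* did not follow the S phase genes (r = -0.036, permutation p = 0.923); *Rbl1* had r = 0.568 (permutation p = 0.0877). The RefSeq promoters of GRCm38.p6 (250 bases before to 50 after a start) held an entry for 29 of the 38 genes. *Ccnd1*, *Ccnd2*, *Ccne2*, *Ccna2*, *Ccnh*, *Cdk5*, *Rb1*, *Wee1* and *Cdc25c* had no entry, so their promoters were not searched. E2F-type letters (TTCCCGC as the consensus form, TTCGCGC as a second form, TTGCCGC as another and TTGGCGC as the last, each on either strand) were in the promoters of 7 of these 29 genes, against 9.574% of 32851 promoters of the same length. The 7 were *Ccnt2*, *Cdc25a*, *Cdk1*, *Cdk2*, *Cdkn2a*, *Cdkn2c* and *Rbl1*. The 250 bases before the start are shown for the 3 genes compared here, 5′ to 3′ in the direction of transcription, with the E2F-type letters in capitals:
*Cdk2* (chr10:128705052-128705301, minus strand): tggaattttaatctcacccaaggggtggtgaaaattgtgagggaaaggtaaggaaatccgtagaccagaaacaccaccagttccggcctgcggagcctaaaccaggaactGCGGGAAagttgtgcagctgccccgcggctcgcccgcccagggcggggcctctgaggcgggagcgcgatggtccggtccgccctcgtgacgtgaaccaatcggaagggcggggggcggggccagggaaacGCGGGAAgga
*Rbl1* (chr2:157204535-157204784, minus strand): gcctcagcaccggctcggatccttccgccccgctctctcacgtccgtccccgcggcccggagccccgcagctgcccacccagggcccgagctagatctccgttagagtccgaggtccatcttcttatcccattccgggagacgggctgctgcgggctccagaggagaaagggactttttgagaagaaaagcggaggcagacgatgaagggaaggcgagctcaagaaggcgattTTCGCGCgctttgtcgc
*Cdk1* (chr10:69352913-69353162, minus strand): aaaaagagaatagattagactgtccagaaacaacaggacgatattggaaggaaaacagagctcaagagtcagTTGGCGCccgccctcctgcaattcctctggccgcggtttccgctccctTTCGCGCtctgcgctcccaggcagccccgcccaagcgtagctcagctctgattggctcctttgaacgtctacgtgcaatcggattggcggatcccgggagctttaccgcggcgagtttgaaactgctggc
*Cdk2* and *Cdk1* each have 2 such matches in this stretch and *Rbl1* has 1. The letters TTTGAA of the CHR element, known from genes of G2 and mitosis, were in the promoters of 6 of the 29 genes against 17.893% of all promoters, and were in that of *Cdk1* but not in those of *Cdk2* or *Rbl1*. CCAAT was in 17 against 37.408%. A gene counted as matched if any of its promoters matched (32 promoters for the 29 genes), while the background counted single promoters. The shares are therefore not in the same unit. A match is a description of the letters and not of binding.

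Among the cyclins of S phase and mitosis, cyclin A2 (*Ccna2*) was at 192, 226, 216, 214 and 233 CPM in CTL 1 to 5. CKO 1 to 5 had 216, 279, 246, 271 and 219.8 CPM. The CKO values reached higher, but CKO 1 and CKO 5 lay within the CTL range (log2 fold change 0.19, standard error 0.086, adjusted p = 0.379, 95% interval 0.0042 to 0.37). Its exons overlap *Exosc9* on the opposite strand, which was at 144 ± 13.4 CPM in CTL and 167 ± 8.48 CPM in CKO, and its part in the value of *Ccna2* was not tested. Exons of *Ccnd3*, *Ccne2*, *Cdk2* and *Cdk4* likewise overlap *Bysl*, *Ints8*, *Pmel* and *Tspan31* on the opposite strand. Those of *Ccna1*, *Ccnc*, *Ccnd2*, *Ccnh*, *Ccnt1*, *Cdc25b*, *Cdc25c*, *Cdk6*, *Rb1* and *Rbl2* also overlap exons of opposite-strand genes. Without a stated strand setting, reads of each such pair cannot be told apart. *Ccnb2*, a B cyclin, was at 115 ± 8.98 CPM and 110.0 ± 16.0 CPM, and *Ccnf*, which recruits proteins for ubiquitination, at 52.2 ± 4.76 CPM and 45.8 ± 7.42 CPM. *Cdk1*, the mitotic kinase, was at 109.6 ± 16.5 CPM in CTL and 109 ± 10.9 CPM in CKO. The mean of *Ccna2*, *Ccnb2*, *Ccnf* and *Cdk1* was set beside the mean of 25 G2/M genes over the 10 libraries and no relation passed a p of 0.05 (r = 0.526, permutation p = 0.125; rho = 0.406, permutation p = 0.246), with r = 0.262 (exact permutation p = 0.527) without the 2 libraries farthest from the median and r = 0.834 (exact permutation p = 0.00836) without the library labelled CKO 3.

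CDC25 phosphatases activate CDKs and WEE1 inhibits them. *Cdc25c* was at 14.0, 24.2, 15.9, 25.6 and 19.0 CPM in CTL 1 to 5. The CKO libraries, 1 to 5, had 19.7, 33.6, 25.1, 20.3 and 30.2 CPM, overlapping CTL (log2 fold change 0.38, standard error 0.22, adjusted p = 0.511). *Cdc25b* was at 35.8, 41.4, 50.3, 33.9 and 56.9 CPM in CTL 1 to 5 and 42.5, 62.8, 25.3, 24.4 and 54.2 CPM in CKO 1 to 5. It was lowest in CKO 3 and CKO 4, the libraries with the highest S phase genes, and its log2 fold change of -0.060 (adjusted p = 0.945) changed sign when any 1 of 4 libraries was left out. *Wee1* was at 242, 209, 233, 197 and 168 CPM in CTL 1 to 5 and 210.4, 241, 199, 234 and 210.4 CPM in CKO 1 to 5 (log2 fold change 0.064, standard error 0.10, adjusted p = 0.829), and *Cdc25a* at 49.4 ± 4.34 CPM and 53.7 ± 8.04 CPM.

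The transcriptional cyclins and kinases were expressed at all levels, from *Ccnh* near the top to *Ccnk* at the bottom of the 35. *Ccnh*, of the CDK-activating kinase, was at 219.7, 193, 188, 211 and 195 CPM in CTL 1 to 5. Values in CKO 1 to 5 were 200.4, 181, 211, 225 and 211 CPM. Its kinase *Cdk7* was at 143, 127, 129.9, 128 and 126 CPM in CTL 1 to 5 and 144, 138, 129, 128 and 123 CPM in CKO 1 to 5. Both overlapped between the genotypes, with log2 fold changes of 0.031 and 0.015 that turned to -0.10 and -0.18 with the GC and length offset. *Ccnt2*, of the elongation factor P-TEFb, was at 109, 120.2, 98.5, 126 and 96.7 CPM in CTL 1 to 5 and 126, 115, 131, 128 and 116 CPM in CKO 1 to 5 (log2 fold change 0.16, standard error 0.092, adjusted p = 0.485). *Ccnt1*, its paralog, was at 106 ± 19.0 CPM and 117 ± 3.03 CPM, and their kinase *Cdk9* at 51.0 ± 9.15 CPM and 49.1 ± 8.27 CPM. The 5 transcriptional cyclins all had log2 fold changes above 0, from 0.031 for *Ccnh* to 0.18 for *Ccnk*, and 0 were called by edgeR or DESeq2 or had an unadjusted p under 0.05. With the GC and length offset *Ccnh* (-0.10) and *Ccnc* (-0.076) were below 0. The value of *Ccnk* was 0.020 without the library labelled CKO 3 and 0.013 with limma-voom, and the median of the 5 went from 0.13 to 0.046 without that library.

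*Ccnk* had the widest spread. It was at 6.69, 10.6, 7.06, 9.02 and 9.63 CPM in CTL 1 to 5 and 14.0, 10.4, 13.7, 2.35 and 8.07 CPM in CKO 1 to 5, lowest in CKO 4. CCNK pairs with CDK12 and CDK13. *Cdk12* was at 52.5, 64.2, 65.0, 41.4 and 45.3 CPM in CTL 1 to 5 and 82.0, 73.0, 70.9, 40.0 and 55.8 CPM in CKO 1 to 5, high in CKO 1 to 3. *Cdk13* was at 28.4, 26.8, 35.0, 35.8 and 48.1 CPM in CTL 1 to 5 and 50.6, 55.7, 29.1, 28.5 and 27.4 CPM in CKO 1 to 5, high in CKO 1 and CKO 2 alone. None of the 3 was called (adjusted p = 0.896 for *Ccnk*, 0.606 for *Cdk12* and 0.857 for *Cdk13*). The Mediator pair *Ccnc* and *Cdk8* was at 91.8 ± 33.9 CPM and 28.5 ± 5.94 CPM in CTL and at 95.2 ± 12.5 CPM and 29.8 ± 2.97 CPM in CKO.

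Outside these groups, cyclin G2 (*Ccng2*), a cyclin tied to cell cycle arrest, was at 101, 136, 132, 140.4 and 129 CPM in CTL 1 to 5 and 131, 132, 86.3, 102 and 124 CPM in CKO 1 to 5. CTL 1, CKO 3 and CKO 4 were low, and the groups overlapped (log2 fold change -0.15, standard error 0.13, adjusted p = 0.659). Against the S phase genes it had r = -0.692 (permutation p = 0.0276; rho = -0.588, permutation p = 0.0805), and its adjusted p in the edgeR fit over all genes was 0.659. Without the library labelled CKO 3, the lowest for *Ccng2*, r was -0.541 and the log2 fold change -0.064. *Cdk5*, an atypical kinase best known from neurons, was at 45.8, 47.0, 36.2, 36.8 and 37.4 CPM in CTL 1 to 5 and 43.7, 32.2, 44.9, 31.7 and 40.6 CPM in CKO 1 to 5 (log2 fold change -0.070, standard error 0.15, adjusted p = 0.886).

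Over the 10 libraries the genes spanned a wide range per length. *Cdk4* was first at 181 ± 18.4 RPKM (mean and SD, n = 10), and its lowest library, 161 RPKM, was above the highest library of *Ccnh*, 114 RPKM. *Ccnh* (103 ± 7.28 RPKM) and *Ccnd3* (99.6 ± 11.6 RPKM) followed and did not differ beyond their spread. *Ccna2* (82.3 ± 9.64 RPKM), *Ccnb2* (72.9 ± 8.09 RPKM), *Ccnd2* (71.4 ± 5.47 RPKM), *Cdkn2d* (68.1 ± 5.94 RPKM), *Cdk2* (66.2 ± 8.57 RPKM), *Cdk6* (65.3 ± 5.92 RPKM) and *Wee1* (62.7 ± 6.90 RPKM) formed a run in which each overlapped its neighbours. *Ccnd1* ranked lower at 23.9 ± 6.98 RPKM. At the bottom of the tested genes *Ccnk* was at 3.48 ± 1.31 RPKM. The *Cdkn1b* level of 10.2 ± 2.11 RPKM put p27 RNA below that of each tested INK4 gene.

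**Figure D4:**
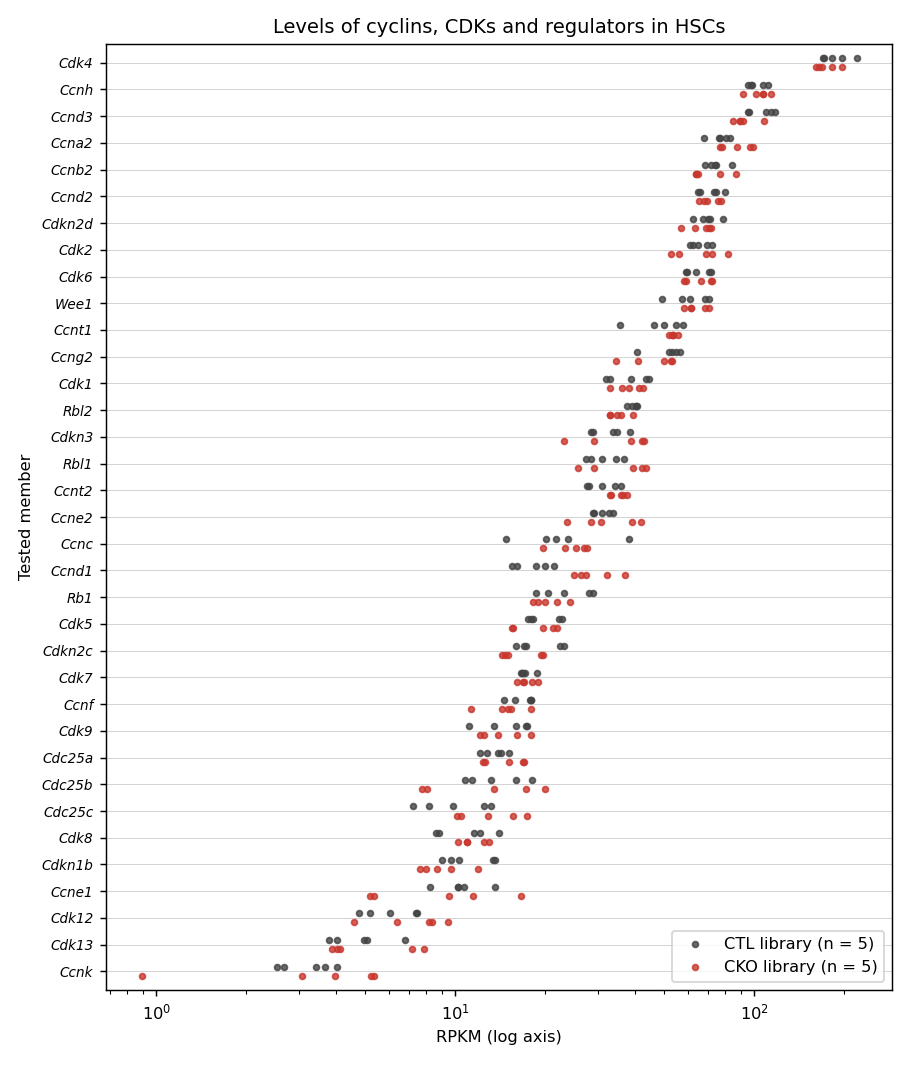
The horizontal axis gives RPKM on a log axis for the 35 tested genes, ordered by mean level, with 1 point per library (grey for CTL, red for CKO, 5 each). *Cdk4* stands apart at the top, *Ccnk* is lowest and widest, and *Ccnd1* is the only gene whose red and grey points do not overlap.

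Libraries of CKO were somewhat more spread for these genes, as for genes in general. The SD of log2 CPM was larger in CKO for 21 of the 35 (60.0%) and for 57.9% of all tested genes. The median SD was 0.18 in CTL and 0.22 in CKO over the 35, and 0.24 and 0.28 over all tested genes. Among the 25 S phase genes it was larger in CKO for 23 (92.0%).

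Other genes of the pathway were read from fixed lists. Of all tested genes, edgeR called 0.226% and DESeq2 2.29%, 12.9% had an unadjusted p under 0.05 in edgeR, and 3.33% did not overlap. These shares are the background for each list here and below. The lists share genes, *Ccnb1*, *Cdkn1c* and *Fbxw7* among them, so their counts are not independent. Of 22 further cyclins, CDKs and CIP/KIP inhibitors, 20 were tested and edgeR called 0, with 6 at an unadjusted p under 0.05 and 4 called by DESeq2 (*Ccnb1* and *Ccny* higher, *Cdk16* and *Cdkn1c* lower). Cyclin B1 (*Ccnb1*), the main mitotic cyclin, was at 82.6, 88.9, 72.6, 89.4 and 85.1 CPM in CTL 1 to 5 and 95.1, 115, 116, 119.6 and 125 CPM in CKO 1 to 5, without overlap (log2 fold change 0.45, standard error 0.10, adjusted p = 0.0781). *Cdk16* was at 118 ± 6.21 CPM and 89.2 ± 10.5 CPM, also without overlap (log2 fold change -0.40, standard error 0.093, adjusted p = 0.0948). p57 (*Cdkn1c*), a CIP/KIP inhibitor known for keeping HSCs at rest, was at 63.2, 52.5, 53.5, 54.4 and 62.6 CPM in CTL 1 to 5 and 42.3, 33.4, 39.9, 41.7 and 49.3 CPM in CKO 1 to 5, again without overlap (log2 fold change -0.47, standard error 0.13, adjusted p = 0.147). p21 (*Cdkn1a*) ranged widely in both genotypes (log2 fold change 0.029, standard error 0.32, adjusted p = 0.98).

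The 19 E2F, DP and MuvB partners of the pocket proteins were all tested and edgeR and DESeq2 called 0, with 3 at an unadjusted p under 0.05 (*Tfdp2*, *Lin52* and *E2f1*) and a median log2 fold change of -0.051. Of 29 genes for CDK assembly and for turnover of cyclins and inhibitors, edgeR called 0, 4 had an unadjusted p under 0.05 and DESeq2 called 1. That 1 was *Fbxw7*, whose ubiquitin ligase degrades cyclin E, at 23.6 ± 6.20 CPM and 38.1 ± 3.51 CPM without overlap (log2 fold change 0.70, standard error 0.18, adjusted p = 0.13). *Ppp2r2a* and *Fbxo5* had the other small p values of that list and also did not overlap.

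Of the 25 S phase genes edgeR and DESeq2 called 0, with 3 at an unadjusted p under 0.05 and a median log2 fold change of -0.008. Of the 25 G2/M genes edgeR called 0, DESeq2 called *Ccnb1* and 4 had an unadjusted p under 0.05. The log2 fold change was above 0 for 18 of them, with a median of 0.13. Over all tested genes it was above 0 for 7231 of 14165, with a median of 0.007. The G2/M median was 0.076 with the GC and length offset and 0.0997 without the library labelled CKO 3. The proliferation marker *Mki67* was at 189 ± 51.8 CPM and 228 ± 51.3 CPM (log2 fold change 0.26, standard error 0.18, adjusted p = 0.601). Of 25 regulators of HSC quiescence 24 were tested and edgeR called 0, while 11 had an unadjusted p under 0.05 and DESeq2 called 2 higher (*Gfi1* and *Fbxw7*) and 4 lower, among them *Cdkn1c*. The median log2 fold change of these regulators was -0.13, and it was -0.10 with the GC and length offset and -0.086 without the library labelled CKO 3.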

How the data were processed

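Single-ended reads were mapped by the authors with HISAT2 (GRCm38; mm10 in the submitters' processing notes) and summarized per gene in Rsubread. They deposited raw counts, with a file of gene lengths in bases (its unit, base pairs, served only as a divisor). Annotation, strand, multi-mapping reads and duplicates are not given in the sources used here. From the deposited counts, genes were kept by filterByExpr in edgeR 4.0.16 (R 4.3.3), normalized by TMM and compared with the quasi-likelihood test (robust dispersion, Benjamini-Hochberg adjustment over 14165 genes, called at adjusted p under 0.05 with over 20% change). Biological variation (common BCV) was 25.3%. A prior count of 2 was used for log2 CPM. RPKM divided CPM by the deposited length. Intervals are 95% intervals of the fit, and count floors cover counting error only.

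The members and lists were chosen with earlier results of these data known. Members named with all libraries were called, did not overlap, had the 8 smallest p values, the highest RPKM of a role or 1 of the 6 largest SDs in CKO; of other lists, the 3 smallest p values and called genes. Promoter entries, *LTO1*, *Exosc9*, *Cdk2*, *Cdk1* and *Rbl1* were named after values were seen. Alternatives were DESeq2 1.42.0, limma-voom (limma 3.58.1), DESeq2 size factors, other filters, a GC content and length offset (GC content for 98.1% of tested genes), a replicate block and each library left out. Scripts were tested on simulated data: of 200 changed genes in the comparison of the genotypes, edgeR recovered 177, with 6 false calls, among 14165 genes. DESeq2 recovered 187, with 30 false calls. The planted log2 fold changes were 1 or 2 in either direction, in genes with many counts, so recovery of smaller changes was not tested. Libraries of 1 genotype differed by more than counting noise.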

Additional observations from a re-analysis of the deposited data

Results flagged for a closer look

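*Ccng2* in CTL 1 was at 101 CPM, with the other 4 CTL libraries between 129 and 140.4 CPM, a gap wide enough for CTL 1 to stand apart from its group. *Cdk7* in CTL 1 was at 143 CPM, with the other 4 between 126 and 129.9 CPM, and stood apart in the same way. CTL 1 is also the library with the lowest total count, 3058690. Of 70 groups examined (35 genes in 2 genotypes), 2 stood apart, and chance alone gives about 1 in 20.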

How the results depend on the processing

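Over all 14165 genes, the calls (17 higher, 15 lower) became 148 and 177 with DESeq2, 6 and 3 with the GC content and length offset, 8 and 2 with that offset and the replicate block, and 5 and 3 at an adjusted p of 0.01, and 9 were lower with the replicate block alone. Without 1 library they ranged from 7 to 31 higher and from 3 to 18 lower. Replicate numbers did not pair the libraries: correlations of same-numbered libraries were 0.0096, -0.095, 0.208, 0.0027 and 0.193, and only the number 5 correlated best with its own number.

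The number of cyclin, CDK and inhibitor genes called higher, 1, became 0 with limma-voom, with the replicate block (*Ccnd1* adjusted p = 0.0668), with the offset, with the offset and block (adjusted p = 0.0683) and at an adjusted p of 0.01, and was 0 to 1 without 1 library. *Ccnd1* kept its direction under all 18 alternatives and its call under 5. The number without overlap and lower was 0 to 1 without 1 library (*Rbl2* without CKO 3, *Ccnd3* without CKO 4). The share of all tested genes without overlap was not counted with a library left out. The relation to G2/M genes had r from 0.368 to 0.834 without 1 library, highest without CKO 3. *Ccne2* against S phase genes had r from 0.902 to 0.966 without 1 library.

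Of 395 alternative values for 22 named genes, 362 kept their sign and 33 in 12 genes did not. With the offset, and with the offset and block, log2 fold changes turned to 0.035 and 0.031 for *Ccnd3*, -0.062 and -0.100 for *Ccne2*, -0.104 and -0.110 for *Ccnh*, 0.0050 and 0.0083 for *Cdk4*, 0.072 and 0.057 for *Cdk5*, -0.180 and -0.178 for *Cdk7*, -0.076 and -0.092 for *Cdk13*, 0.102 and 0.101 for *Cdkn2d*, -0.047 and -0.069 for *Cdkn3*, and 0.106 and 0.037 for *Cdc25b*. *Cdk7* was at -0.0028 with no filter on low counts. Without 1 library the log2 fold change ran from -0.43 to 0.029 for *Ccne1*, -0.015 to 0.18 for *Ccne2*, -0.13 to 0.0036 for *Cdk5*, -0.0094 to 0.048 for *Cdk7*, -0.030 to 0.28 for *Cdk13*, -0.24 to 0.089 for *Cdc25b* and -0.0078 to 0.12 for *Wee1*. The cause was not tested. Real genotype effects tied to GC content or length would be absorbed by the offset too. Counts limit *Ccnk*, *Ccna1*, *Cdkn2a* and *Cdkn2b*.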
